A study of Mus musculus with 12 samples.

Results

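The cytochrome P450 enzymes of families 1 to 4 were described in mouse small intestine as all protein-coding genes whose symbol is Cyp followed by a family digit from 1 to 4 and a subfamily letter. This rule took 81 of the 54532 genes listed, in 22 subfamilies. It used names and no measured value. The study sequenced RNA from C57BL/6J small intestine, with 4 groups of 3 libraries. They were Piezo1 conditional knockout (CKO) mice with necrotizing enterocolitis (NEC), floxed (flox) mice with NEC, CKO mice of the control condition and flox mice of the control condition. CKO mice are labelled as lacking Piezo1, a stretch-gated cation channel, in intestinal epithelial cells, and flox mice carry the floxed gene as their controls. NEC is an inflammatory and necrotic disease of the newborn bowel, here an induced model. The sources used here do not give the Cre driver, the age of the mice or how NEC was induced. The labels do not tie libraries to individual mice, so each p-value measures the spread between libraries.

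Cytochromes P450 are heme enzymes that insert an oxygen atom into a substrate, with electrons passed on by the reductase Por. Families 1 to 3 oxidise drugs, plant compounds and other foreign molecules, and several of their members also act on arachidonic acid and other fatty acids, while family 4 oxidises the far end of fatty acid and eicosanoid chains. The epithelium of the small intestine is known, after the liver, as a main site of this metabolism, and its CYP3A enzymes limit the uptake of many drugs taken by mouth.

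Depth was 13057724 to 16821130 reads per library, recovered from the deposited values, and the 81 genes took 9474 to 17872 of these reads. Levels below are FPKM, read counts scaled by gene length and library size, rescaled with a single set of size factors over all 12 libraries so that NEC and control values can be set side by side. The 2 conditions were deposited in separate tables, and condition and table cannot be told apart. Piezo1 itself was at 4.88, 5.04 and 2.99 FPKM in CKO NEC, against 6.62, 6.52 and 6.12 FPKM in flox NEC, and at 1.72, 1.04 and 0.933 FPKM in CKO control, against 1.39, 1.45 and 1.09 FPKM in flox control. The genotypes did not overlap in NEC and overlapped in control, and neither difference was called (limma with Benjamini-Hochberg adjustment, adjusted p = 0.84 and 0.846). The libraries of a group, and also the 2 conditions, differed in markers of position along the intestine. This check was added after the data were seen. Fabp1, a fatty acid binding protein of the proximal small intestine, was at 576 FPKM in CKO NEC library 1 and 2.29 and 6.36 FPKM in CKO NEC libraries 2 and 3. It was at 0.504 FPKM in flox control library 3, against 316 and 776 FPKM in the other flox control libraries. Fabp6, the bile acid binding protein of the ileum, was at 491 FPKM in flox control library 3 and 28.4 and 45.2 FPKM in the other flox control libraries. It was at 134 to 325 FPKM in NEC libraries and 17.1 to 58.7 FPKM in control libraries other than flox control library 3. Slc10a2, a distal marker, was at 6.04 to 20.5 FPKM in the NEC libraries and 6.60 FPKM in flox control library 3. The other control libraries had 0.0480 to 1.30 FPKM of it. Gata4, a proximal marker, averaged 4.83 FPKM in CKO NEC, 2.41 in flox NEC, 10.7 in CKO control and 8.88 in flox control, with overlap. Markers of age moved with condition. Sucrase-isomaltase (Sis), which rises at weaning, was at 36.2 to 164 FPKM in the NEC libraries and 0.702 to 1.36 FPKM in the control libraries, and lactase (Lct) was at 4.95 to 43.2 FPKM in the NEC libraries and 68.5 to 366 FPKM in the control libraries. Of the marker lists, the 11 enterocyte genes found of 12 summed to 8862 to 12434 FPKM in CKO NEC, 7041 to 11148 in flox NEC, 18392 to 27221 in CKO control and 19788 to 24820 in flox control. Most of this sum was Apoa1 and Apoa4, and the 11 genes did not move together. In NEC against control, 1 of them was called higher and 3 lower in CKO, and 2 higher and 4 lower in flox. All 7 fibroblast genes were detected and summed to 294 to 497 FPKM in CKO NEC, 461 to 623 in flox NEC, 58.8 to 167 in CKO control and 151 to 288 in flox control. The 8 smooth muscle genes summed to 526 to 2043 FPKM in CKO NEC, 1814 to 2849 in flox NEC, 192 to 609 in CKO control and 698 to 894 in flox control. Of the 12 hepatocyte markers, 6 reached 1 FPKM in 3 or more libraries, and the list summed to 154 to 215 FPKM in CKO NEC, 181 to 216 in flox NEC, 275 to 326 in CKO control and 137 to 192 in flox control. Most of this sum was Cps1, a urea cycle enzyme that enterocytes also express, at 103 to 289 FPKM. Ambp, Fga and Fgb were higher in every control library (2.93 to 13.1 FPKM) than in any NEC library (at most 2.40 FPKM), while Alb stayed at or below 0.321 FPKM and Ahsg at or below 0.254 FPKM in every library. Serpina1b averaged 11.0 FPKM in flox NEC against 5.63 in flox control, and 5.57 in CKO NEC against 8.01 in CKO control. Of the 5 hepatocyte genes tested in each genotype, 0 were called higher and 3 lower in NEC in CKO, and 2 higher and 3 lower in flox. The part of these markers in the P450 results was not tested. In RNA of whole tissue, fewer cells of a type and less RNA per cell cannot be told apart.

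Of the 81 genes, 23 were expressed, that is, they had 1 FPKM or more as deposited in 3 or more of the 12 libraries, and 12 of these reached 1 FPKM in every library. They came from 11 of the 22 subfamilies. The Cyp4f subfamily had 6 expressed members of 9, Cyp2c 5 of 15, and Cyp2d, Cyp2j and Cyp3a 2 each of 8, 8 and 9. Cyp1b1, Cyp2s1, Cyp2u1, Cyp2w1, Cyp4b1 and Cyp4v3, each the single gene of its subfamily, made up the rest. The 5 highest transcripts of a library held 63.2% to 80.0% of the summed FPKM of all 81 genes. Cyp3a13, a CYP3A drug-oxidising enzyme of the mouse intestine, was the highest in all 6 NEC libraries and in CKO control library 3. Cyp2c68, a CYP2C gene of chromosome 19, was the highest in the other 5 control libraries. The leading transcript held 23.9% to 30.9% of the sum.

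**Figure D1:**
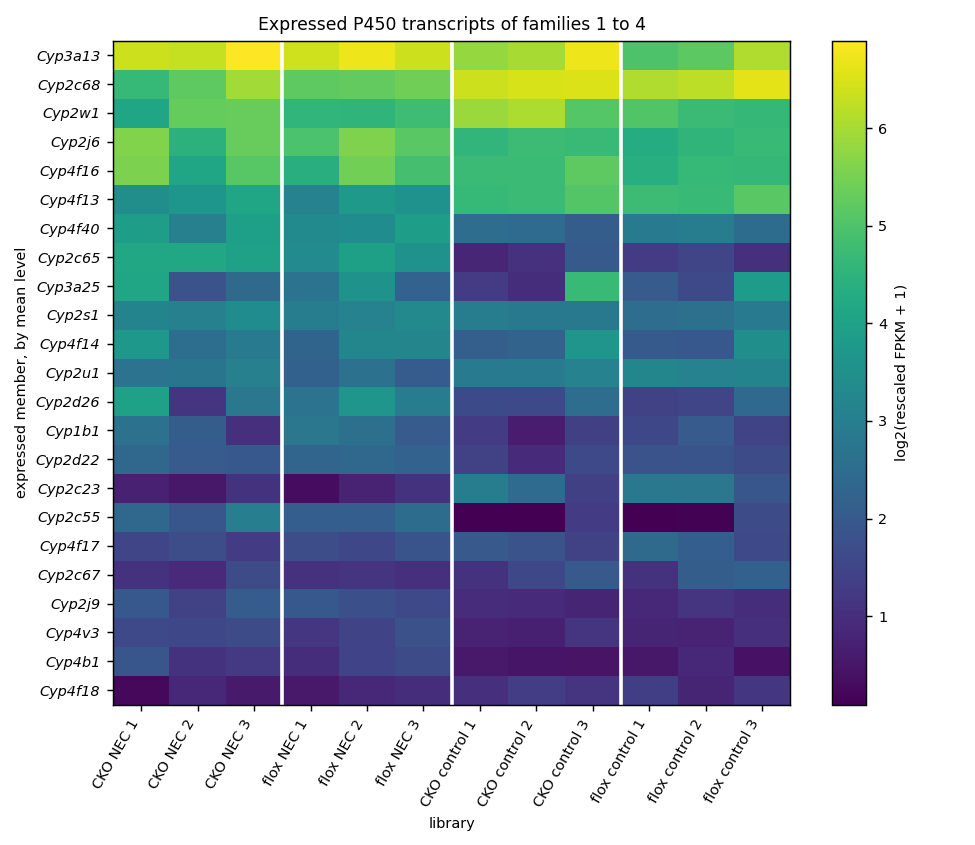
Level of the 23 expressed P450 transcripts (rows, ordered by mean level) in the 12 libraries (columns, grouped by genotype and condition), coloured by log2 of rescaled FPKM plus 1. Cyp3a13 or Cyp2c68 is the highest in each of the 12 libraries, Cyp2c65 and Cyp2c55 are brighter in the NEC columns, and library 3 of both control groups is brighter than its neighbours for Cyp3a25, Cyp4f14 and Cyp2c55.

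The other 58 genes stayed below the floor, and 16 of them had no read in any library. A count of 0 in 1 library allows an expected count of up to 3 reads there (counting error only), and 0 in all 12 libraries bounds a shared level more tightly. Among the 58 were inducible and hepatic forms, named after their values were seen. Cyp2e1, which oxidises ethanol, had at most 3 reads in a library, Cyp1a2 at most 1, and Cyp2b10, the classical target of the receptor CAR, at most 2. None of the 8 genes of Cyp4a, a subfamily that includes known targets of PPARA, was expressed, and the most reads in a library were 24, for Cyp4a12a in flox control library 1. Among these 58, Cyp1a1, Cyp3a11 and Cyp2c66 reached 1 FPKM in 1 or 2 libraries. Cyp1a1, the classical target of the aryl hydrocarbon receptor, had 37 reads (0.933 FPKM) in CKO control library 3 and 154 reads (3.85 FPKM) in flox control library 3, against at most 4 reads in each other library. Cyp3a11, a main CYP3A enzyme of mouse liver, had 148 reads (2.04 FPKM) in CKO control library 3 and 41 reads (0.433 FPKM) in CKO NEC library 1, against at most 18 in each other library. Cyp1a1 was thus seen mainly in library 3 of both control groups and Cyp3a11 mainly in CKO control library 3, and neither across a group.

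NEC was set against control within each genotype, which asks how the P450 transcripts differ with disease. In CKO mice 10 of the 23 members tested were called (43.5%), 7 higher and 3 lower in NEC, by limma on log2 of FPKM plus 1 with Benjamini-Hochberg adjustment over all genes at 0.05. Of all 13355 genes tested in CKO, 37.9% were called, 17.5% higher and 20.4% lower. In flox mice 15 of the 21 members tested were called (71.4%), 11 higher and 4 lower, against 56.5% of 13730 genes, 28.7% higher and 27.8% lower. In CKO, Cyp2j9 and Cyp4b1 reached 1 FPKM only in NEC and Cyp4f18 only in control, so these 3 genes could be tested only because they were high in one condition. Among the 20 members that reached 1 FPKM in both conditions, 5 were called higher (25.0%) and 3 lower in CKO, against 15.9% and 19.9% of all genes chosen in the same way. In flox all 21 members tested reached it in both conditions, and 11 were called higher (52.4%) and 4 lower, against 27.5% and 26.9% of all genes chosen in the same way. The median member change was 0.36 log2 in CKO (0.35 over the 20) and 0.45 log2 in flox, against -0.02 and 0.01 log2 over all genes tested. The NEC and control libraries did not overlap for 12 of 23 members in CKO, against 53.7% of all genes, and for 14 of 21 in flox, against 64.9%, and these shares were close to the background. Without CKO NEC library 1, 4 members were called higher in CKO and 3082 genes in all. Of the 3 that went, Cyp2d22 lost its call, while Cyp2j9 and Cyp4b1 could no longer be tested, as was so without any of the CKO NEC libraries. The lower calls in CKO came to 1 without CKO NEC library 2 and to 1 without CKO control library 2, with 3025 and 3302 genes in all. With libraries scaled by total reads, the split of all called genes was 4264 higher and 1528 lower in CKO, against 2332 and 2727 as reported here, and 5491 higher and 2679 lower in flox, against 3940 and 3811. The members then came to 10 higher and 3 lower in CKO and 12 higher and 4 lower in flox.

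Members called in both genotypes numbered 9, each in the same direction, though Cyp2j9 could be tested in CKO only because it reached 1 FPKM in NEC. Cyp2c65, Cyp2c55, Cyp4f40, Cyp2j9, Cyp4v3 and Cyp2d22 rose in NEC, and Cyp2c23, Cyp4f13 and Cyp2c68 fell. Cyp1b1, Cyp2d26, Cyp2j6, Cyp2s1, Cyp2u1 and Cyp3a13 were called in flox and not in CKO. Cyp4b1 was called in CKO, where it too could be tested only through its NEC values, and was untested in flox. A p that missed the threshold in one genotype does not show a difference between genotypes, which has its own test.

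**Figure D2:**
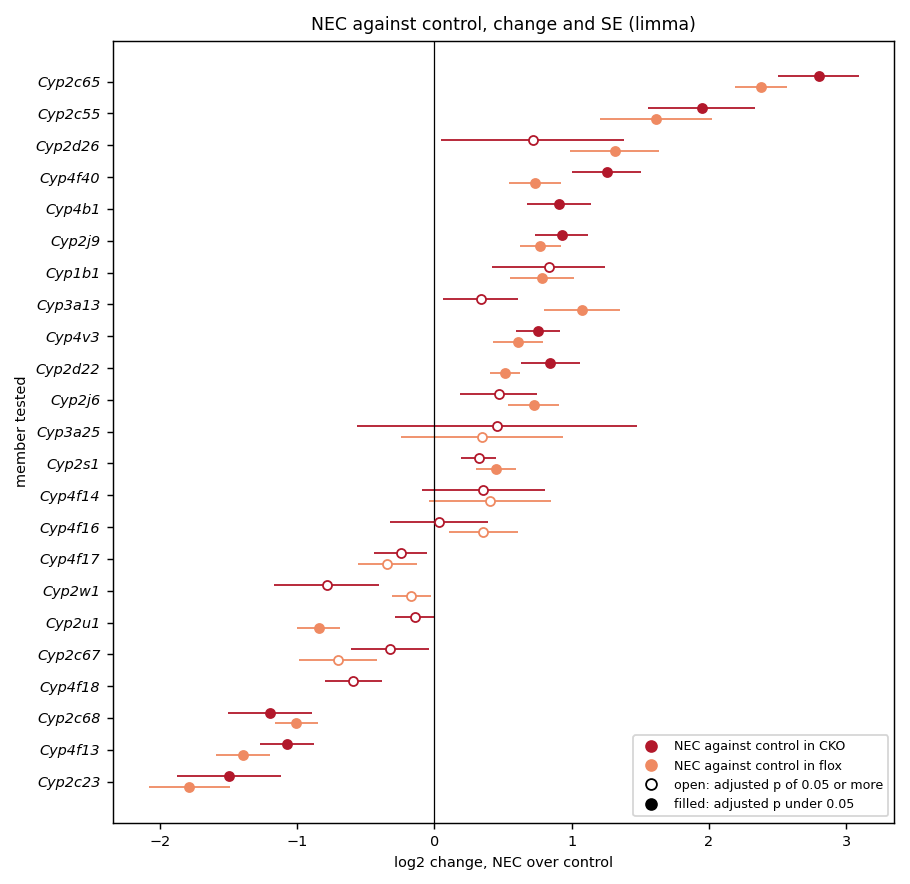
Change of each tested P450 transcript in NEC against control (x axis, log2 of NEC over control, with the SE as bars), in CKO and in flox mice, with filled points for adjusted p under 0.05 in limma. Cyp2c65 (2.80 in CKO, 2.38 in flox) and Cyp2c55 (1.95 and 1.61) are at the upper end, and Cyp2c23 (-1.50 and -1.79) is at the lower end.

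The Cyp2c genes, which in mouse epoxidise and hydroxylate arachidonic and linoleic acid besides drugs, gave the widest changes in both directions. On chromosome 19 of GRCm38 (coordinates as deposited) Cyp2c55 lies at chr19:39007019-39042693 and Cyp2c65 at chr19:39061015-39093944, both on the plus strand and 18.3 kb apart. Cyp2c68 lies at chr19:39688834-39741054 on the minus strand, within the same cluster. Cyp2c23, an arachidonic acid epoxygenase known from the kidney, lies at chr19:44005022-44029208, 3818 kb beyond the last gene of the cluster. The promoters of Cyp2c55, Cyp2c65 and Cyp2c68 are shown because genes of the cluster moved in opposite directions. Cyp2c55 and Cyp2c65, which are adjacent, rose, and Cyp2c68, with other Cyp2c genes in between, fell. They come from RefSeq on GRCm38.p6, run from 250 bases before to 50 bases after the annotated start, and are at chr19:39006769-39007068 (plus strand), chr19:39060756-39061055 (plus strand) and chr19:39741052-39741351 (minus strand). Capitals mark matches on either strand to TATAAA, to CAAAGTCCA (a direct-repeat sequence of the kind HNF4A binds) and to GCGTG (the core of the AHR element), with CACGC being GCGTG read on the other strand.
Cyp2c55: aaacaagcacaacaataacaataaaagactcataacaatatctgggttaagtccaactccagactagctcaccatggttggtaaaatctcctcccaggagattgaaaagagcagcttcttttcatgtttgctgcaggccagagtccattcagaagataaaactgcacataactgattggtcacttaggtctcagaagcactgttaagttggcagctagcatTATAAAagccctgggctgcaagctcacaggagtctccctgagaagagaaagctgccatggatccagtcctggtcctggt
Cyp2c65: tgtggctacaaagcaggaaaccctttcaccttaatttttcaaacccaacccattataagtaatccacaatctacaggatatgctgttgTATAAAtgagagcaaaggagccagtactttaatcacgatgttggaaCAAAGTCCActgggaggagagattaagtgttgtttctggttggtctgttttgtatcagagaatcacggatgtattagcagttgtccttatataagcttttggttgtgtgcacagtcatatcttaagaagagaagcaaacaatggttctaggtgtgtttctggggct
Cyp2c68: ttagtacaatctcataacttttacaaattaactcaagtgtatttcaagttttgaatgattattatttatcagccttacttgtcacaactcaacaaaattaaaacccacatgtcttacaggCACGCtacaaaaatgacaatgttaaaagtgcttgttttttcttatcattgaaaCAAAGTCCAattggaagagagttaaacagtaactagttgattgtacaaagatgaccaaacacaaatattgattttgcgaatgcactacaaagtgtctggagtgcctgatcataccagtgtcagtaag
TATAAA began 29 bases before the Cyp2c55 start and 162 bases before the Cyp2c65 start. CAAAGTCCA began 116 bases before the Cyp2c65 start and 77 bases before that of Cyp2c68, so it was held by a promoter of each direction. These distances are from the RefSeq starts, which for Cyp2c65 and Cyp2c68 are not the deposited gene starts given above. Of the 23 expressed members 19 had a promoter entry, and a gene with several entries was counted once if any of them matched. CAAAGTCCA was in 3 of the 19 (Cyp2c65, Cyp2c67 and Cyp2c68), against 0.555% of the 27025 genes in the table counted in the same way. All 3 are Cyp2c genes, and the promoters of Cyp2c67 and Cyp2c68 share long runs of sequence, so these matches are not independent. TATAAA was in 4 of the 19, against 15.7% of all genes, and GCGTG in 7, against 35.2%. The direct repeat with a single spacer base that PPAR and HNF4 receptors bind (DR1) was searched for in a single exact spelling only. That spelling was in 0 of the 19, against 0.0481% of all genes. It is too rare for a count in 19 genes to show whether DR1 sites were absent. TATAAA and CAAAGTCCA were searched for after these promoters had been read, so their shares cannot show enrichment. A match describes letters, not a bound site.

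Cyp2c65 showed the widest rise. It was at 16.6, 17.03 and 14.9 FPKM in CKO NEC, 9.39, 14.7 and 11.1 in flox NEC, 0.766, 1.08 and 3.06 in CKO control and 1.45, 1.84 and 1.01 in flox control. Every NEC library was above every control library, and the mean ratio of NEC to control was 9.88 in CKO and 8.19 in flox. The change on log2 of FPKM plus 1, which understates the change of low genes, was 2.80 ± 0.29 in CKO (SE, limma adjusted p = 0.0019) and 2.38 ± 0.19 in flox (adjusted p = 0.000128). Cyp2c55, known in mouse for making hydroxylated arachidonic acid, was at 4.26, 2.77 and 6.96 FPKM in CKO NEC, 3.35, 3.35 and 4.64 in flox NEC, 0.0673, 0.0698 and 1.41 in CKO control and 0.0666, 0.102 and 2.17 in flox control. The control libraries 1 and 2 of each genotype rested on 2 or 3 reads, while library 3 had 40 reads in CKO control and 62 in flox control, and no control library reached the NEC range. Its change was 1.95 ± 0.39 in CKO (limma adjusted p = 0.00939) and 1.61 ± 0.40 in flox (adjusted p = 0.0115), and 2.34 and 2.13 when the control library 3 of that genotype was left out. The gene next to them, Cyp2c66, was below the floor and averaged 0.538 FPKM in CKO NEC, 0.165 in flox NEC, 0.0241 in CKO control and 0.0228 in flox control. The CKO NEC mean rested on library 1 (1.16 FPKM) and was 0.227 FPKM without it.

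Cyp2c68 was at 24.2, 36.2 and 61.2 FPKM in CKO NEC, 35.8, 37.6 and 41.9 in flox NEC, 82.1, 89.4 and 92.3 in CKO control and 66.5, 73.5 and 97.1 in flox control. It was lower in each NEC library than in any control library, with a mean 0.461 times that of control in CKO and 0.486 times in flox. The change was -1.19 ± 0.31 in CKO (limma adjusted p = 0.0212) and -1.01 ± 0.16 in flox (adjusted p = 0.0015). The CKO call did not hold without CKO NEC library 2 (adjusted p = 0.0642), CKO control library 2 (0.0573) or CKO control library 3 (0.0561), while the change stayed between -1.16 and -1.18. Cyp2c23 was at 0.648, 0.453 and 1.12 FPKM in CKO NEC, 0.243, 0.666 and 1.14 in flox NEC, 6.75, 4.58 and 1.63 in CKO control and 6.03, 5.90 and 2.74 in flox control. All NEC libraries lay below all control libraries, and library 3 was the lowest of each control group. Its change was -1.50 ± 0.38 in CKO (limma adjusted p = 0.021) and -1.79 ± 0.29 in flox (adjusted p = 0.00187). In CKO the adjusted p was 0.05 to 0.068 without CKO NEC library 1, CKO NEC library 2, CKO control library 1 or CKO control library 2, with changes of -1.16 to -1.47. Cyp2c67 was the fifth expressed member of the subfamily, at 0.896 to 3.58 FPKM over all libraries, and was not called (adjusted p = 0.396 in CKO and 0.0689 in flox, limma).

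**Figure D3:**
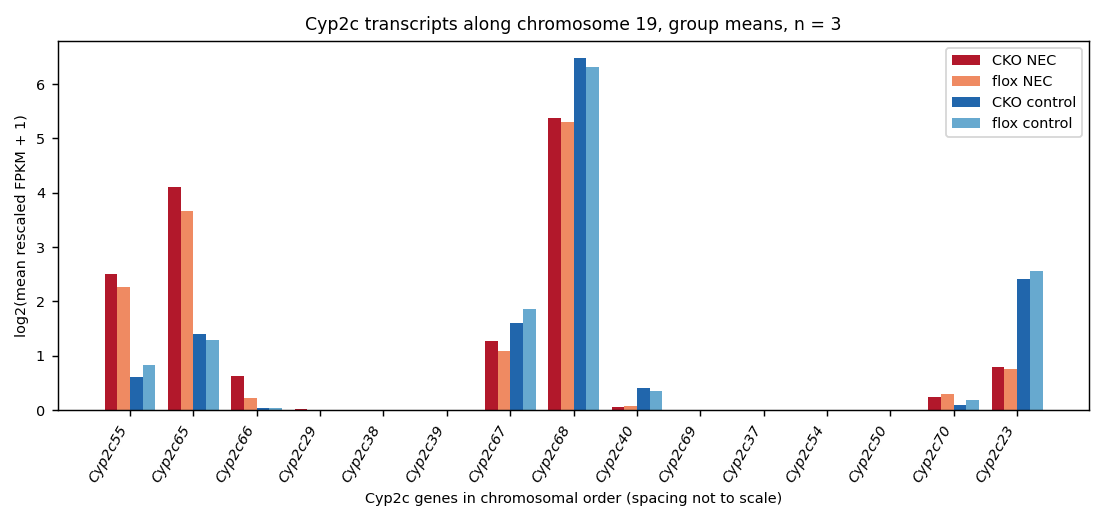
Mean level of the 15 Cyp2c transcripts (y axis, log2 of mean rescaled FPKM plus 1, n = 3) in the order of the genes on chromosome 19 (x axis, spacing not to scale), in the 4 groups. The NEC bars are taller at Cyp2c55 and Cyp2c65, and the control bars are taller at Cyp2c68 and Cyp2c23.

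Reads of close copies may be split between them. Of the 50-base runs in the annotated transcripts of Cyp2c68, 43.3% also occurred in transcripts of another gene, most often Cyp2c40, and for Cyp2c67 the share was 52.8%. It was 26.8% for Cyp3a25, 20.7% for Cyp2c65 (mainly Cyp2c66) and 17.4% for Cyp4f16, and under 10% for the other 18 expressed members. Values of these 5 genes are less certain for it, by an amount that was not tested, since the aligner and counting method are not given.

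Cyp3a13 and Cyp3a25 were the expressed CYP3A genes. Cyp3a13 was at 82.0, 77.9 and 118 FPKM in CKO NEC, 83.3, 104 and 82.5 in flox NEC, 55.7, 63.8 and 104 in CKO control and 31.2, 35.1 and 67.2 in flox control. The flox NEC libraries were above the flox control libraries, while in CKO the groups overlapped through CKO control library 3. The gene rose in flox NEC by 1.07 ± 0.28 log2 (limma adjusted p = 0.0128) and differed in CKO by 0.34 ± 0.27 (adjusted p = 0.359). Cyp3a25 was at 16.0, 2.54 and 4.44 FPKM in CKO NEC, 5.48, 11.0 and 3.70 in flox NEC, 1.48, 0.970 and 25.0 in CKO control and 3.13, 2.03 and 13.3 in flox control. Its spread within groups was wider than any difference between them, with changes of 0.46 ± 1.02 in CKO and 0.34 ± 0.59 in flox (limma adjusted p = 0.744 and 0.64). In CKO the sign depended on the scale, since the mean FPKM in NEC was 0.838 times that of control. Library 3 held its highest value in each control group, as it did for Cyp3a13, Cyp4f14, Cyp2c55 and Cyp2d26.

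The 2 expressed CYP2J genes, enzymes that epoxidise or hydroxylate arachidonic acid, had higher means in NEC than in control in both genotypes. Cyp2j6 was at 48.0, 21.2 and 38.7 FPKM in CKO NEC, 30.3, 47.2 and 34.8 in flox NEC, 22.6, 25.8 and 24.7 in CKO control and 18.7, 22.4 and 25.0 in flox control. It rose in flox by 0.72 ± 0.18 log2 (limma adjusted p = 0.0121), and in CKO, where CKO NEC library 2 lay below all 3 control libraries, the change was 0.47 ± 0.28 (adjusted p = 0.219). Cyp2j9 was at 2.88, 1.71 and 3.20 FPKM in CKO NEC, 2.91, 2.40 and 1.9998 in flox NEC, 0.946, 0.898 and 0.737 in CKO control and 0.816, 1.22 and 0.981 in flox control. The groups did not overlap, and it rose by 0.93 ± 0.19 in CKO (limma adjusted p = 0.0105) and 0.77 ± 0.15 in flox (adjusted p = 0.00385). In CKO it could be tested only because it reached 1 FPKM in NEC.

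The CYP4F enzymes oxidise the omega end of leukotriene B4 and long-chain fatty acids. They moved in both directions. Cyp4f13 was at 10.03, 11.7 and 15.9 FPKM in CKO NEC, 7.63, 12.4 and 10.9 in flox NEC, 24.1, 25.4 and 32.4 in CKO control and 25.9, 25.1 and 34.4 in flox control. No NEC library reached the control range, and the gene fell by 1.07 log2 in CKO NEC (SE 0.19, limma adjusted p = 0.00697) and by 1.39 in flox NEC (SE 0.20, adjusted p = 0.000927). Cyp4f40 was at 13.7, 7.33 and 14.2 FPKM in CKO NEC, 9.04, 9.49 and 13.6 in flox NEC, 4.77, 4.54 and 3.29 in CKO control and 6.47, 6.89 and 4.65 in flox control. It was above control in each NEC library and rose by 1.26 ± 0.25 in CKO (limma adjusted p = 0.00947) and 0.74 ± 0.19 in flox (adjusted p = 0.0127). Cyp4f16, the CYP4F transcript with the highest mean over the 4 groups, though below Cyp4f13 in every flox control library, was at 45.8, 16.2 and 33.7 FPKM in CKO NEC, 19.9, 42.9 and 28.6 in flox NEC, 25.4, 25.5 and 36.1 in CKO control and 19.97, 24.2 and 23.6 in flox control. Its conditions overlapped in both genotypes, and it was not called (limma adjusted p = 0.944 in CKO and 0.259 in flox). Cyp4f14, a leukotriene B4 hydroxylase, ranged over 2.89 to 12.2 FPKM and Cyp4f17 over 1.42 to 4.43 FPKM, and neither was called. Cyp4f18, known as the leukotriene B4 hydroxylase of neutrophils, was at 0.174 to 1.58 FPKM, with a change of -0.59 ± 0.21 in CKO (limma adjusted p = 0.0586).

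Cyp2d22 and Cyp2d26 were the expressed genes of the CYP2D subfamily. Cyp2d22, the mouse counterpart of human CYP2D6, was at 4.24, 3.16 and 2.92 FPKM in CKO NEC, 3.98, 4.14 and 3.66 in flox NEC, 1.63, 0.856 and 2.01 in CKO control and 2.55, 2.65 and 2.16 in flox control. The NEC libraries were above all control libraries, by 0.85 ± 0.21 log2 in CKO (limma adjusted p = 0.0201) and 0.52 ± 0.11 in flox (adjusted p = 0.00604). The CKO call did not hold without CKO NEC library 1 (change 0.72, adjusted p = 0.0689) or CKO NEC library 2 (0.89, adjusted p = 0.0521). Cyp2d26 was at 14.9, 1.16 and 5.93 FPKM in CKO NEC, 5.46, 11.4 and 6.76 in flox NEC, 2.10, 2.02 and 4.70 in CKO control and 1.67, 1.86 and 4.32 in flox control. It rose in flox by 1.31 ± 0.32 (limma adjusted p = 0.0108; 0.0815 with all 4 groups in a single fit). In CKO, where NEC library 1 held the highest and NEC library 2 the lowest value of all, the change was 0.72 ± 0.67 (adjusted p = 0.425).

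CKO NEC library 1 and flox NEC library 2 each had the highest level of their group for Cyp3a25, Cyp2d26, Cyp2j6, Cyp4f16 and Cyp4f14. These were also the libraries with the most Fabp1 in their group, at 576 FPKM in CKO NEC library 1 and 142 FPKM in flox NEC library 2, against 2.29 to 37.6 FPKM in the other 4 NEC libraries. The control libraries differed from this, since library 3 had the least Fabp1 of each group (105 FPKM in CKO, 0.504 FPKM in flox). The proximal marker Gata4 did not place these libraries alike. It was the highest of its group in CKO control library 3 (14.5 FPKM) and the lowest of its group in flox control library 3 (0.928 FPKM). Library 3 still held the highest Cyp3a25, Cyp4f14 and Cyp2d26 of each control group. Cyp4f16 was highest in library 3 in CKO control only, and Cyp2j6 in flox control only. The part of position along the intestine in these values was not tested.

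**Figure D4:**
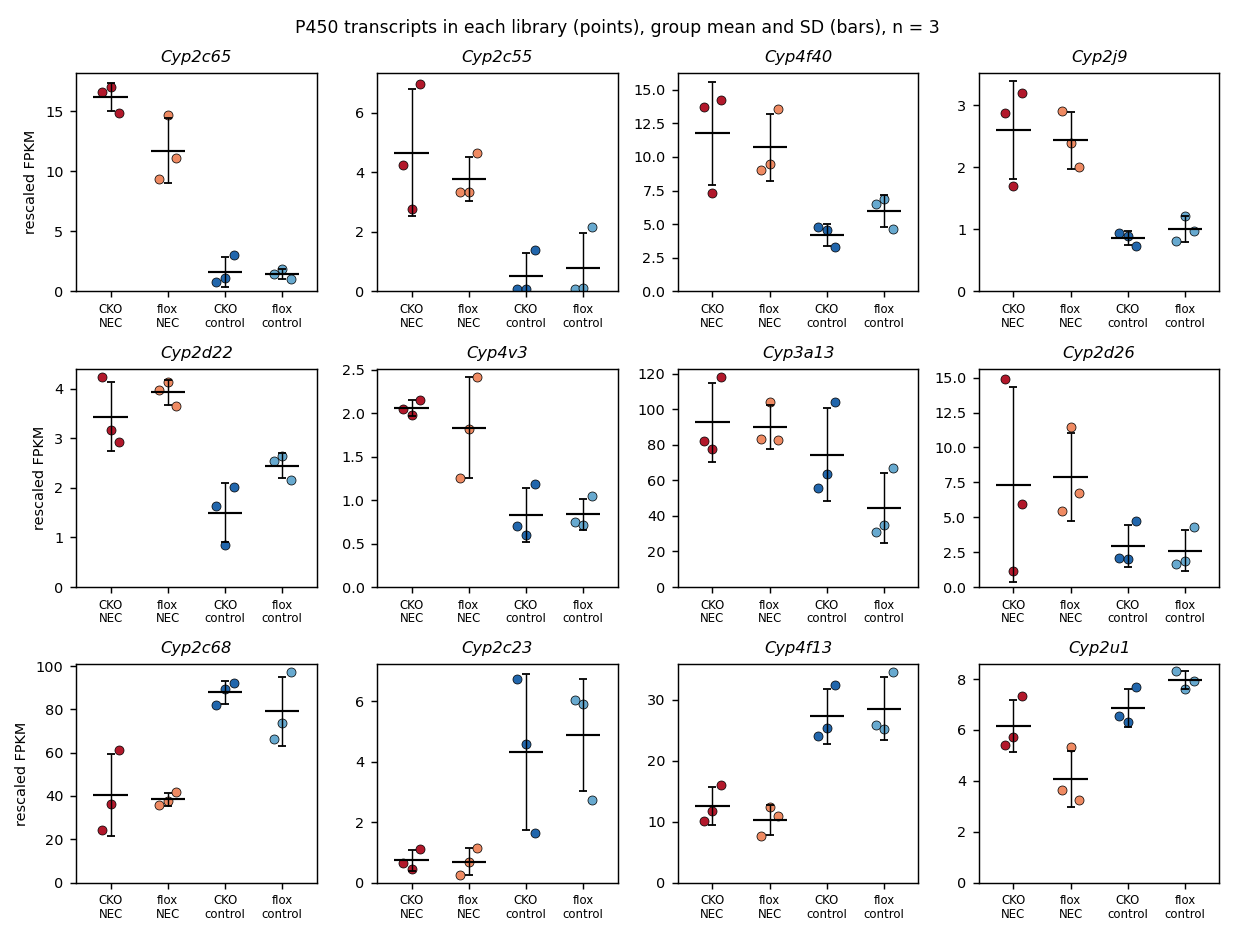
Rescaled FPKM (y axis, from 0) of 12 P450 transcripts in each library (points) of the 4 groups (x axis), with the mean and SD of each group (bars, n = 3). The NEC libraries lie above all control libraries for Cyp2c65, Cyp2c55 and Cyp2j9 and below them for Cyp2c68, Cyp2c23 and Cyp4f13, and Cyp2d26 spreads over 1.16 to 14.9 FPKM within CKO NEC.

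The 6 expressed members that are the single gene of their subfamily ranged from 0.340 to 66.2 FPKM over the libraries. Cyp2w1, known in human from fetal gut and colorectal tumours, was at 16.1, 37.8 and 38.6 FPKM in CKO NEC, 22.9, 22.3 and 26.6 in flox NEC, 57.3, 66.2 and 33.3 in CKO control and 32.1, 25.7 and 23.5 in flox control. The conditions overlapped in each genotype, and it was not called in NEC against control (limma adjusted p = 0.145 in CKO and 0.344 in flox). Cyp2u1, which hydroxylates long-chain fatty acids, was at 5.42, 5.72 and 7.34 FPKM in CKO NEC, 3.63, 5.32 and 3.24 in flox NEC, 6.53, 6.33 and 7.71 in CKO control and 8.31, 7.60 and 7.94 in flox control. It fell by 0.84 log2 in flox NEC (SE 0.16, limma adjusted p = 0.0033), where the groups did not overlap, and differed by -0.14 ± 0.14 in CKO (adjusted p = 0.468), where they did. Cyp2s1, a P450 of epithelia outside the liver, was at 7.94, 7.25 and 9.52 FPKM in CKO NEC, 6.86, 7.63 and 8.91 in flox NEC, 6.68, 6.21 and 6.13 in CKO control and 4.74, 5.06 and 6.56 in flox control. NEC and control did not overlap in either genotype, with changes of 0.33 ± 0.13 in CKO (limma adjusted p = 0.081) and 0.45 ± 0.15 in flox (adjusted p = 0.0309). The call in flox was lost without flox NEC library 2 or 3 or flox control library 1 or 2 (changes of 0.36 to 0.46, adjusted p = 0.0724 to 0.107).

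Cyp4v3, the mouse counterpart of human CYP4V2 and a fatty acid hydroxylase, was at 2.05, 1.98 and 2.16 FPKM in CKO NEC, 1.26, 1.82 and 2.42 in flox NEC, 0.706, 0.604 and 1.18 in CKO control and 0.750, 0.715 and 1.04 in flox control. The groups did not overlap, and it rose by 0.75 ± 0.16 log2 in CKO (limma adjusted p = 0.0115) and 0.61 ± 0.18 in flox (adjusted p = 0.0234). In flox the call was lost without flox NEC library 2 or 3 or flox control library 1 or 2 (changes of 0.46 to 0.60, adjusted p = 0.0627 to 0.0915). Cyp4b1, which oxidises fatty acids and furan toxins, was at 2.77, 1.12 and 1.36 FPKM in CKO NEC, 0.989, 1.75 and 2.15 in flox NEC, 0.476, 0.401 and 0.374 in CKO control and 0.442, 0.845 and 0.340 in flox control. The NEC libraries were above the control libraries in both genotypes, but in flox it missed the floor for testing. Its change in CKO was 0.91 ± 0.23 (limma adjusted p = 0.0211), and 0.055 and 0.0537 were the adjusted p without CKO control library 2 and without CKO control library 3. The CKO test was open to Cyp4b1 only because it reached 1 FPKM in NEC. Cyp1b1, which oxidises polycyclic hydrocarbons and estradiol and is known from stromal cells, was at 5.35, 3.27 and 1.05 FPKM in CKO NEC, 5.96, 5.08 and 3.11 in flox NEC, 1.47, 0.543 and 1.59 in CKO control and 1.97, 3.13 and 1.78 in flox control. NEC and control overlapped in both genotypes, and its rise of 0.78 ± 0.23 in flox (limma adjusted p = 0.0229) was lost without flox NEC library 1 or 2 or flox control library 1 or 3 (changes of 0.62 to 0.72, adjusted p = 0.0512 to 0.0807). The summed fibroblast markers were higher in NEC than in control in the same libraries, as given above.

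The comparison of CKO with flox asks whether loss of epithelial Piezo1 goes with other P450 levels. In NEC, limma called 0 of 21 members, against 0% of 13673 genes, with 2 members at an unadjusted p under 0.05 and 0 by limma-voom. Member differences ran from -0.57 to 0.51 log2 with a median SE of 0.26, and their median was 0.04, against 0.01 over all genes. The genotypes did not overlap for 1 of the 21 members, Cyp2u1, against 11.0% of all genes. Cyp2u1 was higher in CKO NEC by 0.51 log2 with a 95% interval of 0.09 to 0.93 (limma adjusted p = 0.84). Cyp2c65 was higher in CKO NEC by 0.44 with an interval of 0.06 to 0.82 (adjusted p = 0.84), and on the deposited scale, which the genotype tests use, 16.1 FPKM in CKO NEC library 3 lay just below 16.2 FPKM in flox NEC library 2.

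In the control condition, limma called 0 of 19 members, against 0.00752% of 13300 genes (1 gene, lower in CKO), with 3 members at an unadjusted p under 0.05 and 0 by limma-voom, which called 735 genes in all. Without flox control library 3, limma called 830 genes and still 0 members. The genotypes did not overlap for 4 of the 19 members (Cyp2w1, Cyp2d22, Cyp1b1 and Cyp4f16), against 34.5% of all genes, a share of 21.1% that is below the background. Cyp2w1 was higher in CKO control by 0.88 ± 0.26 log2 (95% interval 0.26 to 1.49, limma adjusted p = 0.0888), and its mean was 1.93 times that of flox control. Cyp2d22 was lower in CKO control, at -0.49 ± 0.20 (95% interval -0.97 to -0.01, limma adjusted p = 0.164). Cyp3a13 differed by 0.76 ± 0.34 (95% interval -0.04 to 1.56, limma adjusted p = 0.188). Library 3 was the highest of each genotype for Cyp3a13 and the lowest of each for Cyp2w1. Without library 3 of both control groups, a choice made after seeing the data that leaves 2 libraries a group, Cyp2w1 (1.07 log2) and Cyp3a13 (0.83 log2) were called higher in CKO (limma adjusted p = 0.0403 each), among 1345 genes in all. The widest interval belonged to Cyp2d26 in NEC (-2.06 to 1.08) and to Cyp3a25 in control (-2.60 to 2.27), so that differences of several fold in these genes were not detectable with 3 libraries a group.

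**Figure D5:**
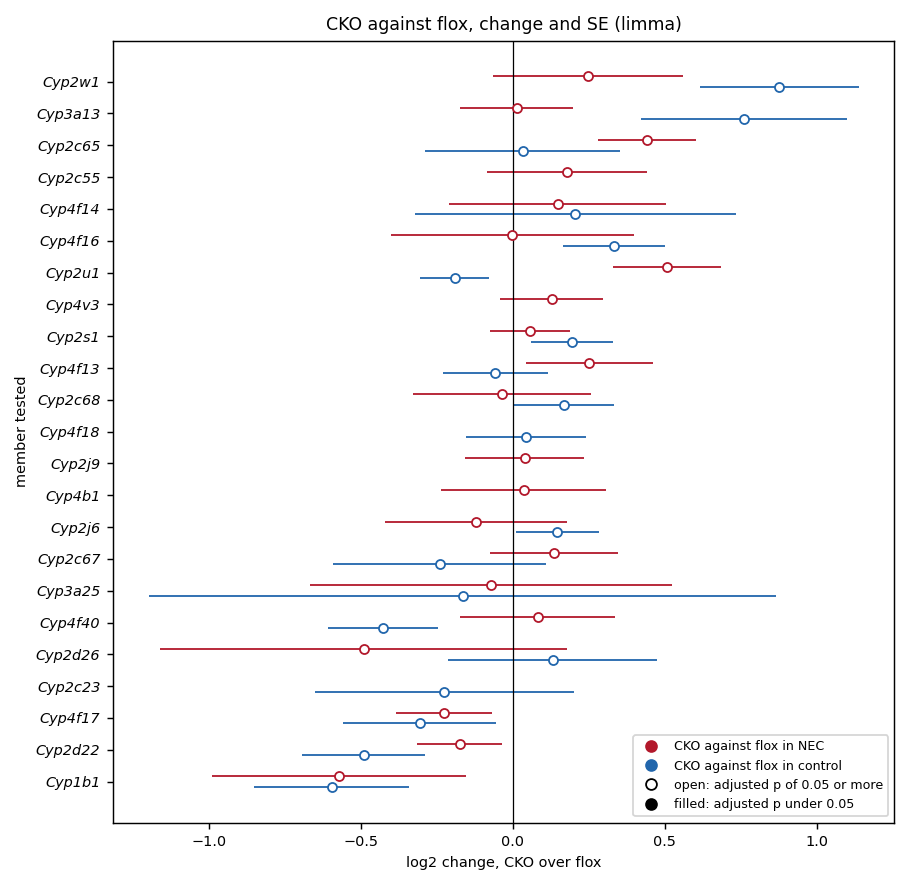
Difference of each tested P450 transcript between genotypes (x axis, log2 of CKO over flox, with the SE as bars), in NEC and in control. Every point is open, since no member had an adjusted p under 0.05 in limma. Cyp2w1 (0.88) and Cyp3a13 (0.76) in control lie farthest to the right, and Cyp3a25 in control has the longest bar.

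The interaction, the NEC change in CKO less the NEC change in flox, asks whether the response to NEC differed between genotypes. Limma called 0 of 23 members, against 0.773% of 14609 genes (0.144% higher and 0.630% lower in CKO), with 1 member at an unadjusted p under 0.05 and 0 by limma-voom. That member was Cyp2u1, with an interaction of 0.70 ± 0.22 log2 (95% interval 0.23 to 1.18, limma adjusted p = 0.105), its NEC change being -0.14 in CKO and -0.84 in flox. For Cyp3a13 the interaction was -0.74 ± 0.43 (95% interval -1.67 to 0.20, adjusted p = 0.352), with NEC changes of 0.34 in CKO and 1.07 in flox. The median over members was 0.11, against -0.01 over all genes. For the other genes called in flox and not in CKO, Cyp1b1, Cyp2d26, Cyp2j6 and Cyp2s1, the interaction ran from -0.60 to 0.05 with adjusted p of 0.733 to 0.969 (limma). The count over all genes was unsteady: it was 535 without flox control library 3, 288 without CKO control library 3 and 0 to 44 without any other single library, while the members called remained 0 in each of these fits.

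The partners of the P450 enzymes were read from lists of named genes. Their counts stand beside those over all genes tested, of which 17.5% were called higher and 20.4% lower in CKO and 28.7% higher and 27.8% lower in flox, and no list was tested against all genes. Por, the reductase that supplies electrons to all microsomal P450s, was at 77.2, 49.7 and 70.8 FPKM in CKO NEC, 51.7, 79.2 and 58.7 in flox NEC, 26.5, 21.4 and 28.7 in CKO control and 16.8, 19.2 and 21.8 in flox control. Every NEC library was above every control library, and Por rose by 1.32 ± 0.20 log2 in CKO (limma adjusted p = 0.0045) and 1.65 ± 0.18 in flox (adjusted p = 0.000326). Of the 7 electron donor genes tested, 1 was called higher and 1 lower in CKO and 2 higher and 3 lower in flox, with 37.9% and 56.5% of all genes called in either direction. Fdxr, which serves the mitochondrial P450s, fell in both (-0.57 in CKO and -1.22 in flox), and cytochrome b5 (Cyb5a), which aids some microsomal P450 reactions, fell in flox (-1.11, limma adjusted p = 0.00107).

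Of 12 genes of heme synthesis and breakdown, 0 were called higher and 6 lower in CKO, against 17.5% and 20.4% of all genes, and 2 higher and 8 lower in flox, against 28.7% and 27.8%. The synthesis enzymes Uros (-0.87 in CKO and -1.25 in flox) and Urod (-0.88 and -0.86) and the heme oxygenase Hmox1 (-1.62 and -1.99) fell in both genotypes, while Alas1, the first enzyme of the pathway, rose in flox (0.43, limma adjusted p = 0.0197). Of the 14 sensing receptors and cofactors tested, 2 were called higher and 3 lower in CKO and 6 higher and 3 lower in flox, so 5 and 9 of 14 were called, close to the 37.9% and 56.5% of all genes. Ppara, the fatty acid receptor that drives Cyp4a genes in liver, was at 10.7, 7.63 and 8.85 FPKM in CKO NEC, 8.42, 12.8 and 9.83 in flox NEC, 2.68, 2.60 and 4.80 in CKO control and 0.952, 1.92 and 2.74 in flox control. It rose in CKO (1.23 ± 0.22, limma adjusted p = 0.00628) and in flox (2.02 ± 0.25, adjusted p = 0.000569), with no overlap between conditions, while the Cyp4a genes stayed below the floor.

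Ahr, the aryl hydrocarbon receptor that drives Cyp1 genes, rose in flox (0.76 ± 0.14, limma adjusted p = 0.00293), with a change of 0.22 ± 0.13 in CKO (adjusted p = 0.239) and an interaction of -0.54 ± 0.19 (adjusted p = 0.136). Its means were 3.51 ± 0.32 FPKM in CKO NEC, 4.84 ± 0.53 in flox NEC, 2.90 ± 0.44 in CKO control and 2.47 ± 0.48 in flox control (SD, n = 3 each). Nr1i2, the receptor PXR that induces Cyp3a and Cyp2c genes, averaged 39.7 ± 10.5 FPKM in CKO NEC, 34.3 ± 2.1 in flox NEC, 57.1 ± 24.6 in CKO control and 49.6 ± 15.5 in flox control, and was not called (limma adjusted p = 0.27 in CKO and 0.0791 in flox). Hnf4a, a nuclear factor of enterocytes and hepatocytes that drives many P450 genes, averaged 115 ± 33 FPKM in CKO NEC, 112 ± 12 in flox NEC, 149.6 ± 5.8 in CKO control and 121 ± 32 in flox control, and was not called either (adjusted p = 0.177 and 0.732). Nr0b2, the repressor SHP, fell by 2.03 log2 in CKO NEC and by 2.44 in flox NEC (limma adjusted p = 0.00134 and 0.000267).

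Among 12 other PPARA targets, 1 was called higher and 3 lower in CKO and 3 higher and 2 lower in flox, so they did not move in a single direction. Cpt1a, which starts mitochondrial fatty acid oxidation, rose in both (0.60 in CKO and 1.15 in flox). Of 3 other AHR targets tested, 0 were called in either genotype. Nqo1, one of these, was at 41.9, 29.0 and 54.3 FPKM in CKO NEC, 32.7, 39.4 and 34.9 in flox NEC, 9.08, 6.73 and 58.7 in CKO control and 14.3, 12.1 and 69.5 in flox control. Library 3 was again apart in both control groups, in the direction seen for Cyp1a1. Of the epoxide hydrolases and eicosanoid enzymes, 1 of 6 was called higher and 1 lower in CKO, and 2 of 7 higher and 2 lower in flox. Ephx2, the soluble hydrolase that removes the epoxides CYP2C and CYP2J enzymes make, fell in both (-1.04 in CKO and -0.75 in flox), and the prostaglandin synthase Ptgs1 rose in both (1.19 and 1.24). None of these lists had a gene called in either genotype comparison or in the interaction (limma), and all were chosen with earlier results of these data known.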

How the data were processed

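The authors deposited FPKM values for 54532 genes in 2 tables, 1 per condition, with 6 libraries each. Per the labels' protocols, Trizol RNA was made into libraries with the NEBNext Ultra II kit. The sources used here name no aligner, counting method or annotation. FPKM times gene length lay on whole multiples of a single step for 100% of values (tolerance 0.05), which gave reads per gene. Levels are these reads over gene length, divided by median-of-ratios size factors over the 12 libraries. Against the deposited FPKM they differ by -0.156 to -0.115 log2 in NEC and by 0.00703 to 0.0115 in control. Genotypes were tested on deposited FPKM within a table. NEC against control and the interaction were tested on rescaled values. All tests used limma 3.58.1 in R 4.3.3 on log2(FPKM + 1) with a variance trend, over genes with at least 1 FPKM in at least 3 libraries fitted, with Benjamini-Hochberg adjustment over all genes at 0.05. The procedure was tested on simulated data. Tables were handled in Python 3.11.15 (pandas 2.3.3, numpy 2.4.6) and drawn with matplotlib 3.10.9.

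Members and lists were chosen with earlier results of these data known. Library values are printed for the 10 highest members, for up to 6 called members per direction and NEC comparison whose groups do not overlap, and, where fewer than 2 passed, for the 2 with the smallest p. Piezo1, Por, Ahr, Nr1i2, Ppara and Hnf4a are always given. Other members given in full (Cyp1b1, Cyp4v3) were added after their values were seen. Coordinates of 73 of the 81 members are identical to GENCODE M21 on GRCm38. Promoter sequences are from RefSeq. Alternatives covered the pseudocount, filter, scaling, deposited values, limma-voom on the reads, the replicate number, a joint fit and each library left out. No columns were left unused, and the enterocyte symbol Si matched no gene.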

Additional observations from a re-analysis of the deposited data

How the results depend on the processing

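Of the 25 calls of a member in NEC against control, 17 held in every alternative that gave a value, 8 were lost in at least 1, and 0 reversed. Leaving out single libraries gave 4 to 7 members called higher and 1 to 3 lower in CKO, and 8 to 12 higher and 4 to 5 lower in flox. It gave 0 in both genotype comparisons and in the interaction. With a mean FPKM of at least 5 required, 2 members were called higher in CKO (7 as reported) and 6 in flox (11 as reported), since fewer low genes are tested. With no filter 1 member was called lower in CKO (3 as reported), and Cyp2d22, Cyp2c23, Cyp4b1 and Cyp2c68 in CKO and Cyp1b1, Cyp4v3 and Cyp2s1 in flox were lost (adjusted p = 0.0576 to 0.0697), with the adjustment running over 29737 genes in CKO and 29715 in flox. Cyp2s1 in flox was also lost with equal library medians (adjusted p = 0.0531), and Cyp1b1 in flox with 4 groups in a single fit (0.0952). The cause was not tested.

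Scaling by total reads moved the median change of all genes to 0.24 log2 in CKO and 0.23 in flox, and deposited values to 0.10 and 0.14. With deposited values 3140 genes were called higher and 2062 lower in CKO and 4906 and 3123 in flox, with 8 and 3 members in CKO and 12 and 4 in flox.

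With the replicate number as a block, 1 member was called higher in the control genotype comparison, Cyp3a13 (0.76 log2, adjusted p = 0.0451), among 903 genes. Same-numbered libraries correlated at -0.136 to 0.366 in their deviations from the group means, and not all pairs exceeded 0.1, so the numbers were not taken as pairing the libraries. Under the block NEC against control gave 7 higher and 4 lower in CKO and 11 higher and 4 lower in flox. Without replicate 3 of both control groups, an alternative added after the data were seen, 2 members were called higher in the control genotype comparison, as given in the report, and 517 genes in the interaction.

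Counts over all genes moved further. The control genotype comparison, with 1 gene called, had 760 at a mean FPKM of at least 5, 735 by limma-voom, 2090 with 4 groups in a single fit and 0 with no filter. The interaction, with 113, had 6 with no filter, 344 at a mean FPKM of at least 5, 41 with equal medians and 181 with deposited values. NEC against control in CKO, with 5059, had 3220 at a mean FPKM of at least 5. Depth limits the low members: at 2 or 3 reads a library, a level is known only to counting error.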

Other observations

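Of the 18 protein-coding P450 genes of families 5 and above, 5 could be tested in CKO and 4 in flox. Cyp20a1, an orphan P450, averaged 6.02 ± 0.43 FPKM in CKO NEC, 6.35 ± 0.16 in flox NEC, 3.89 ± 0.84 in CKO control and 3.94 ± 0.90 in flox control (SD, n = 3 each). It was called higher in NEC in CKO (0.54 log2, limma adjusted p = 0.0323) and in flox (0.59, adjusted p = 0.00927). Cyp39a1, which hydroxylates a side-chain oxysterol on the way to bile acids, averaged 2.56 ± 0.19 FPKM in CKO NEC, 2.24 ± 0.37 in flox NEC, 1.55 ± 0.39 in CKO control and 0.795 ± 0.055 in flox control, and was also called higher in NEC in CKO (0.49, limma adjusted p = 0.0391) and in flox (0.85, adjusted p = 0.00159). Cyp27a1, the mitochondrial sterol hydroxylase, was called lower in NEC in flox (-0.68, limma adjusted p = 0.00725), with a change of -0.02 in CKO (adjusted p = 0.954) and an interaction adjusted p of 0.276.

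Cyp11a1, which cleaves cholesterol at the start of steroid synthesis, was at 0.101, 0.359 and 0.393 FPKM in CKO NEC, 0.178, 0.208 and 0.135 in flox NEC, 5.63, 7.25 and 0.848 in CKO control and 6.08, 3.22 and 0.740 in flox control. All control libraries lay above all NEC libraries, and library 3 was the lowest of each control group, as it was for Cyp2c23. Fewer than 3 libraries of a genotype reached 1 FPKM, so the change was not tested. It was singled out after its values were seen.

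Of the 30 genes with a symbol of families 1 to 4 that are not protein coding, 0 reached 1 FPKM in 3 libraries.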
